A study of Mus musculus with 6 samples.

Results

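The miR-15/16 family is a group of mature miRNAs that share the same seed, the bases at positions 2 to 8 with which a miRNA pairs with its target mRNAs. Its members were taken by exact name from the 1915 mature miRNAs listed for each library, and 10 names were found. They are 6 strands with the family's seed, called guide strands here, mmu-miR-15a-5p, mmu-miR-15b-5p, mmu-miR-16-5p, mmu-miR-195a-5p, mmu-miR-497a-5p and mmu-miR-322-5p, and 4 passenger strands, mmu-miR-15a-3p, mmu-miR-15b-3p, mmu-miR-16-1-3p and mmu-miR-16-2-3p, written without the species prefix from here on. For miR-322-5p the name follows the seed and not the level, since the other arm of its hairpin had more reads in every library. Small RNA was sequenced from the whole brain of wild-type C57BL/6 mouse embryos at E15.5 (embryonic day), with 3 libraries from females and 3 from males. Neither sex was treated or carried an engineered allele. The study's methods state that sex was read from the presence or absence of testicular cords in the gonads, and that each library was made from the pooled RNA of 2 to 3 embryos, so that pools and not single embryos are the replicates. The comparison of males with females asks which miRNAs differ by sex in the developing brain.

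A miRNA is cut from a hairpin precursor, whose arms give a guide strand, which is loaded into an Argonaute protein and lowers the output of the mRNAs it pairs with, and a passenger strand, which is mostly degraded. The miR-15/16 family is known for holding back the cell cycle and favouring cell death, through targets such as the cyclins Ccnd1 and Ccne1 and the survival gene Bcl2, and the Dleu2 locus that carries miR-15a and miR-16-1 is often lost in chronic lymphocytic leukaemia in people. In the embryonic cortex miR-15b has been described as holding back the division of neural progenitors, and in the heart miR-195 rises as muscle cells stop dividing after birth.

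The 6 guide strands are printed below from RefSeq (GRCm38.p6), 5′ to 3′, with the seed in capitals, because that stretch makes them a family and the rest tells them apart in sequencing.
miR-15a-5p: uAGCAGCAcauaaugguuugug
miR-15b-5p: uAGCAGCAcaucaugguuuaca
miR-16-5p: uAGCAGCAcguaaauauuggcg
miR-195a-5p: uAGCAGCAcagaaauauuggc
miR-497a-5p: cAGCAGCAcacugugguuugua
miR-322-5p: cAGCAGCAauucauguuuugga

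All 6 have the seed AGCAGCA. Compared base by base from the 5′ end, miR-16-5p and miR-195a-5p are identical at 19 of 21 positions, the closest pair. miR-15a-5p and miR-15b-5p are identical at 18 of 22 positions. miR-16-5p and miR-497a-5p are identical at 11 of 22. The mature miR-16-5p of the Mir16-1 and Mir16-2 precursors is the same molecule, so its reads cannot be assigned to a locus.

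The 4 passenger strands are printed in the same way, since each comes from 1 precursor only and so bears on the locus.
miR-15a-3p: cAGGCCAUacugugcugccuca
miR-16-1-3p: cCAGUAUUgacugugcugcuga
miR-15b-3p: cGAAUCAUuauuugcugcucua
miR-16-2-3p: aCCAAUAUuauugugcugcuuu

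These 4 have seeds that differ from the family's and from each other's. The same seed as in the guide strands was found in 4 more of the 1623 listed miRNAs that have a RefSeq sequence, miR-195b, miR-6342, miR-6353 and miR-6419. They contributed next to nothing here, since miR-195b had 1 read in female library 3 and none elsewhere, and the other 3 had no read in any library. miR-503-5p, a neighbour of miR-322, has a seed that ends in another base, and in miR-103-3p the same 7 letters start 1 base earlier, at position 1.
miR-503-5p: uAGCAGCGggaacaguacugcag
miR-103-3p: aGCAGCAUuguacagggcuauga

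The precursors lie at 4 loci. On mm9, the build named by the authors, the match of the Mir16-1 hairpin was at chr14:62250717-62250809 on the minus strand, and the stretch from the 5p to the 3p arm of Mir15a at chr14:62250875-62250933, both in an intron of the long noncoding RNA Dleu2. Mir15b, at chr3:68813694-68813757, and Mir16-2, at chr3:68813824-68813918, are on the plus strand in an intron of Smc4, which encodes a condensin subunit. Mir497, at chr11:70048219-70048302, and Mir195a, at chr11:70048544-70048637, are next to each other on the plus strand, outside any annotated host gene. Mir322, at chrX:50407432-50407526, lies beside Mir503, at chrX:50407161-50407231, on the minus strand, in a cluster that also holds Mir351, Mir542 and the Mir450 genes.

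The libraries held 14802675 to 59362011 reads on miRNAs. Female library 2 stood apart, with the most reads and the fewest miRNAs detected, 660 against 790 to 915 in the other 5. The 10th percentile of the reads of its detected miRNAs was 137.7, against 11 to 21 in the others, so members of low level could be lost from it. The brain markers miR-9-5p, miR-124-3p, miR-128-3p and miR-137-3p summed to 193179.4 to 211882.2 counts per 1000000 reads of the library total (CPM) in females and 162404.0 to 187905.5 in males, most of it miR-9-5p. These sums did not overlap, and miR-137-3p, at 37.9 to 169.0 CPM the rarest of the 4, was lower in males (log2 fold change, male over female, -1.55, edgeR adjusted p = 2.7e-04). Neither miR-9-5p (-0.36), miR-124-3p (-0.56) nor miR-128-3p (-0.09) passed edgeR's test (adjusted p = 0.555, 0.164 and 0.87). The summed markers of other tissues did not overlap between the sexes either. The 4 skeletal muscle miRNAs summed to 388.1 to 1180.1 CPM in females and 5497.5 to 6138.8 in males, and the 6 epithelial ones to 428.5 to 1133.1 and 7989.5 to 8283.7. All 4 muscle miRNAs and 5 of the 6 epithelial ones passed edgeR's test, each higher in males. The epithelial miR-141-3p did not pass (1.56, edgeR adjusted p = 0.686). The 6 mesenchymal miRNAs summed to 6458.1 to 13317.2 CPM in females and 18099.2 to 20617.0 in males. Of these 6, 3 passed edgeR's test, all higher in males. miR-143-3p leaned the other way (-0.61), and neither it, miR-145a-5p nor miR-199b-5p passed (edgeR adjusted p = 0.104, 0.202 and 0.0728). The 4 of hindbrain and spinal cord summed to 8613.3 to 12290.4 CPM in females and 1658.8 to 2054.8 in males. Nearly all of that sum was miR-10a-5p and miR-10b-5p, since miR-196a-5p and miR-196b-5p had 2.57 CPM or less. The 5 red blood cell miRNAs summed to 1283.8 to 2705.4 CPM in females and 3172.4 to 3927.1 in males. In that list miR-486a-5p and miR-486b-5p, which have nearly the same counts, were higher in males, while miR-451a (0.18), miR-144-3p (-0.97) and miR-144-5p (-0.74) did not pass edgeR's test. The part of these tissues in the results on the family was not tested, and in whole tissue fewer cells of a type and less RNA per cell cannot be told apart.

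miR-16-5p was the most abundant member. It took 12458.7, 10633.3 and 18487.9 CPM in female libraries 1, 2 and 3 and 8841.3, 8591.5 and 7648.0 CPM in male libraries 1 to 3. By its mean of 11110.1 CPM it was in place 21 of the 1163 miRNAs with a read. miR-15b-5p followed with a mean of 4042.5 CPM, in place 40. The other 4 guide strands were far rarer, with means of 150.1 CPM for miR-15a-5p, 68.6 for miR-322-5p, 52.6 for miR-195a-5p and 25.1 for miR-497a-5p. Among the passenger strands, miR-15b-3p reached 56.6 CPM, while miR-16-1-3p (6.35), miR-16-2-3p (4.85) and miR-15a-3p (0.832) were at the bottom.

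Not all neighbours in this order were apart. miR-16-5p lay above miR-15b-5p, miR-15b-5p above miR-15a-5p and miR-497a-5p above miR-16-1-3p with no overlap between their ranges over the 6 libraries. miR-15a-5p was also above miR-322-5p in 6 of 6 libraries, though the ranges met. miR-322-5p lay above miR-15b-3p in 3 of 6 libraries, miR-15b-3p above miR-195a-5p in 4 of 6, and miR-16-1-3p above miR-16-2-3p in 3 of 6, so these neighbours were not ordered beyond their spread. The reads of 2 miRNAs can differ through adaptor ligation and amplification as well as through the number of molecules, and the protocol names no molecular identifiers.

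**Figure D1:**
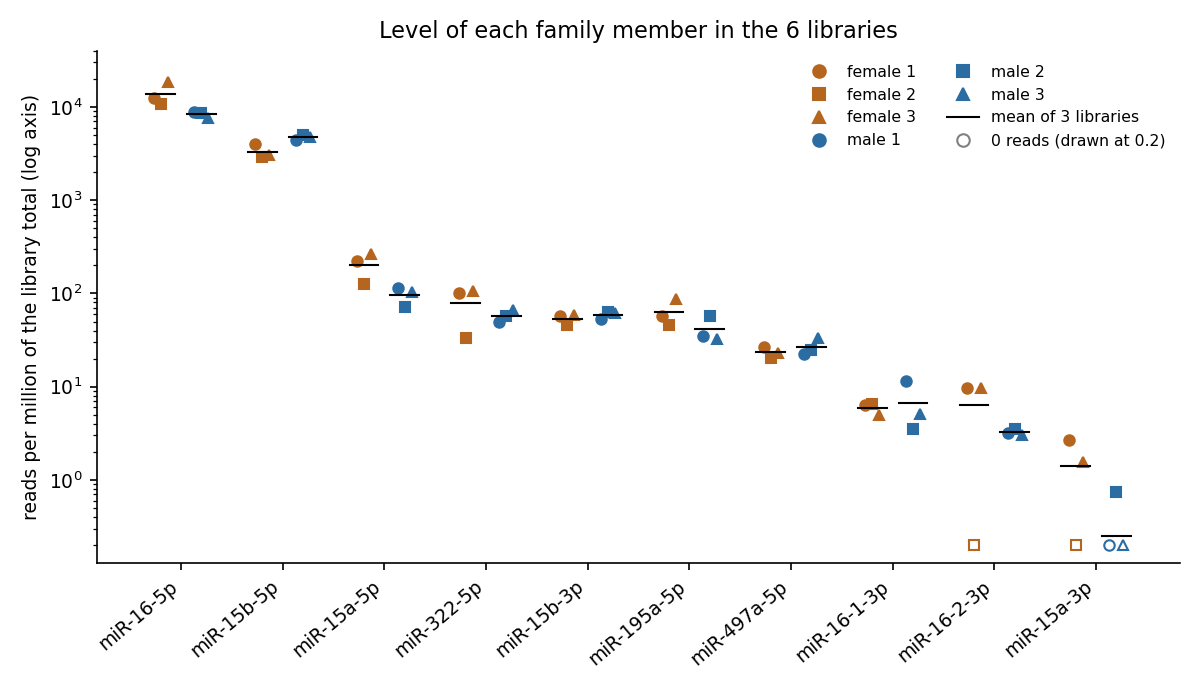
Level of the 10 members in CPM of the library total (log axis), with a point per library, females in brown and males in blue, and a black line at the mean of 3 libraries. Open symbols stand for 0 reads. miR-16-5p and miR-15b-5p lie at 2867.6 CPM or more in each library, and every other member at 266.5 CPM or less.

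Together the 6 guide strands made up 1.69%, 1.37% and 2.20% of the reads of female libraries 1 to 3 and 1.35%, 1.38% and 1.27% in male libraries 1 to 3. The female mean was 1.76% ± 0.419 (SD, n = 3), the male mean was 1.33% ± 0.0585 (SD, n = 3), and the sexes overlapped, since female library 2 lay between the male values. The make-up of this sum differed more clearly. miR-16-5p held 73.7%, 77.5% and 83.9% of the guide reads in females and 65.4%, 62.2% and 60.3% in males. miR-15b-5p held 23.9%, 20.9% and 13.9% in females and 33.0%, 36.3% and 37.9% in males. Neither share overlapped between the sexes. These 2 strands hold nearly all of the guide reads, so their shares mirror each other. The shares and the ratio of the 2 strands, given below, are thus 1 observation. Without miR-16-5p, the other 5 guide strands summed to 3692.6 ± 687.4 CPM (SD, n = 3) in females, against 4985.1 ± 278.6 CPM (SD, n = 3) among males, with each male library above each female library. miR-15b-5p supplied most of that sum. No test was made on these sums and shares.

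**Figure D2:**
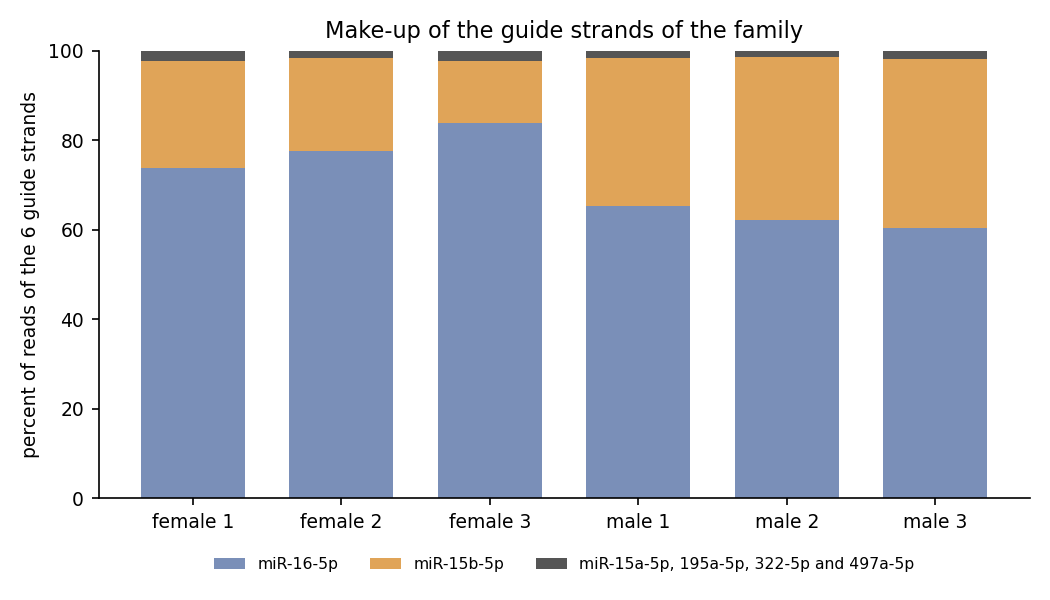
Share of each guide strand in the reads of the 6 guide strands, in percent, with a bar per library. The miR-16-5p part falls between 73.7% and 83.9% in the 3 female libraries and between 60.3% and 65.4% in the 3 male libraries, with miR-15b-5p taking up nearly all of the rest.

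Males were compared with females on the counts of all 1120 miRNAs with at least 10 reads in total, by the quasi-likelihood test of edgeR with p-values adjusted after Benjamini and Hochberg, and log2 fold changes are male over female. miR-15a-5p and miR-16-5p were lower in males, and no member was higher in males past the threshold of 0.05 for the adjusted p. At an unadjusted p below 0.05, edgeR gave 3 members, with miR-195a-5p added and 0 higher in males, where 18.4% of all miRNAs tested did so, and DESeq2 gave 3 with 1 higher in males, where 20.4% did. Thus 2 of the 10 members passed, where 8.48% of all miRNAs tested did, and 5.27% did with the higher level in females. Many of all miRNAs tested had few reads. With at least 10 reads asked of every library, 2 of 8 members passed in edgeR, both lower in males. Of all 550 miRNAs left by that filter 17.6% passed, and 12.4% did with the higher level in females. Of all 95 miRNAs that passed, 36 were higher in males and 59 in females, a split that became 50 and 39 when library size replaced TMM scaling. The median log2 fold change was -0.63 over the 10 members and -0.02 over all miRNAs tested. In 3 of the 10 members the sexes did not overlap in CPM, against 23.9% of all miRNAs tested, a share close to that of the members. The family as a whole was not tested against other miRNAs. All 10 members passed the filter on reads, 8 of them with at least 10 reads in every library.

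miR-15a-5p, the guide strand from the Dleu2 intron, had 220.6, 125.0 and 266.5 CPM in female libraries 1 to 3 and 114.0, 71.6 and 102.8 CPM in male libraries 1 to 3. Each male library lay below each female library, although female library 2 came close to male library 1. The log2 fold change was -1.21 ± 0.24 (SE), with an adjusted p of 0.00126 in edgeR, and the male mean CPM was 0.471 of the female mean. The adjusted p was 0.0285 or less under the 11 other scalings, filters, tools and terms tried, and it was 0.0696 in the edgeR fit without male library 1, where the log2 fold change was -1.28.

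miR-16-5p, the joint product of the Dleu2 and Smc4 introns, showed a smaller difference in the same direction. Its values, given above, did not overlap between the sexes, with female library 3 the highest by a wide margin and the males close together. The log2 fold change was -0.85 ± 0.24 (SE), with an adjusted p of 0.0272 in edgeR, and the male mean CPM was 0.603 of the female mean. Its adjusted p from edgeR was 0.155 without female library 3, 0.223 without male library 1 and 0.132 without male library 3, with log2 fold changes of -0.61, -0.82 and -0.79. It was also 0.0607 with library size in place of TMM, 0.072 with upper quartile scaling and 0.1 with an offset for the GC content of each sequence, all in edgeR.

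miR-15b-5p, the guide strand from the Smc4 intron, had 4036.8, 2867.6 and 3061.1 CPM in female libraries 1 to 3 and 4461.3, 5018.7 and 4809.3 CPM in male libraries 1 to 3. Each male library lay above each female library, with female library 1 nearest to the males. The log2 fold change of 0.41 ± 0.21 (SE) did not pass (edgeR adjusted p = 0.328). It was 0.78 with the GC offset (edgeR adjusted p = 0.0282, in a fit where 5.98% of all miRNAs passed), and 0.41 with an adjusted p of 0.0439 in DESeq2 with 1 RUVr factor, a term for unwanted variation that the study's methods also name.

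**Figure D3:**
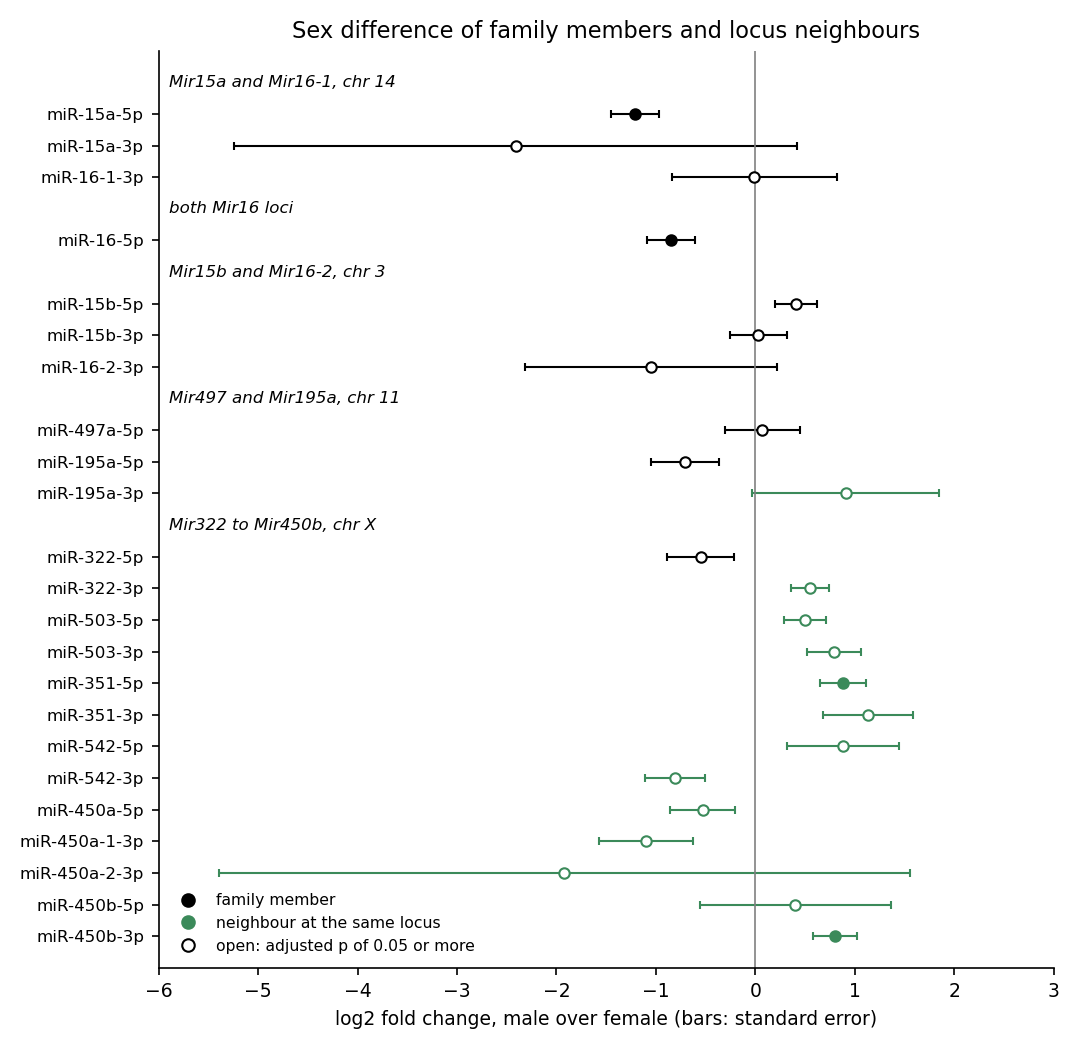
Log2 fold change, male over female, with its standard error, for the family members (black) and the other miRNAs of the same loci (green), ordered by locus. Filled points passed the edgeR test at an adjusted p below 0.05 and open points did not. miR-15a-5p (-1.21) and miR-16-5p (-0.85) are filled on the female side, and miR-351-5p (0.88) and miR-450b-3p (0.80) on the male side.

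Ratios of 2 members within a library do not depend on how the libraries are scaled. For each of 10 chosen ratios, the log2 ratios were compared by a two-sided exact permutation test over libraries, in which 3 against 3 cannot give a p below 0.1. The ratio of miR-15a-5p to miR-15b-5p was 0.0547, 0.0436 and 0.0870 in female libraries 1 to 3 and 0.0255, 0.0143 and 0.0214 in male libraries 1 to 3. The lowest female value was above the highest male value, and the geometric means were 2.99-fold apart (difference of log2 ratios, male minus female, -1.58, exact permutation p = 0.1, adjusted p = 0.333 over the 10 ratios). The ratio of miR-15b-5p to miR-16-5p was 0.324, 0.270 and 0.166 in females and 0.505, 0.584 and 0.629 in males. Here the males were the higher sex in each library, by 2.34-fold in the geometric mean (1.23, exact permutation p = 0.1, adjusted p = 0.333). By contrast, the ratio of miR-15a-5p to miR-16-5p, 0.0118 to 0.0177 in females and 0.00833 to 0.0134 in males, overlapped (-0.35, exact permutation p = 0.4, adjusted p = 0.571). None of the 10 ratios passed after adjustment, which no ratio could in this design.

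**Figure D4:**
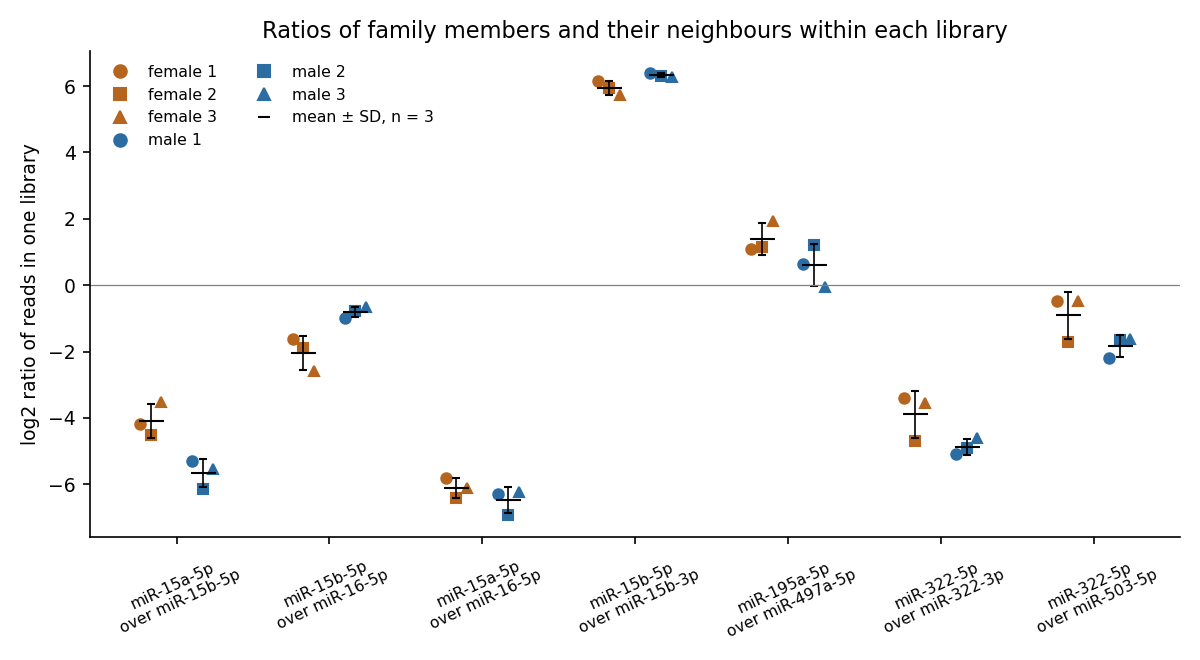
Log2 ratio of the reads of 2 miRNAs within each library for 7 of the 10 ratios, with a point per library and the mean ± SD of each sex. The sexes are apart for miR-15a-5p over miR-15b-5p, miR-15b-5p over miR-16-5p and miR-15b-5p over miR-15b-3p, and they overlap for the other 4.

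None of the 4 passenger strands passed the edgeR test, with 0 at an unadjusted p below 0.05. miR-15b-3p had 56.8, 46.2 and 58.2 CPM in female libraries 1 to 3 and 52.9, 63.2 and 62.2 CPM in male libraries 1 to 3, so that the sexes overlapped (log2 fold change 0.03 ± 0.29 (SE), edgeR adjusted p = 0.975). There were 71.1, 62.0 and 52.6 reads of miR-15b-5p for each read of miR-15b-3p in females and 84.3, 79.4 and 77.4 in males. Each male ratio was above each female ratio, by a difference of 0.39 on the log2 scale (exact permutation p = 0.1, adjusted p = 0.333).

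The passenger strands of the 2 Mir16 precursors are the reads that can tell these loci apart, and they were few. miR-16-1-3p, from the Dleu2 intron, had 95, 385 and 180 reads in female libraries 1 to 3 and 216, 156 and 119 in male libraries 1 to 3, or 3.55 to 11.6 CPM, with male libraries 1 and 2 at the top and bottom. Its log2 fold change was -0.01 ± 0.83 (SE), with an adjusted p of 0.998 in edgeR, and its sign depended on the scaling. miR-16-2-3p, from the Smc4 intron, had 143, 0 and 346 reads in the females and 59, 156 and 72 in the males. A count of 0 in female library 2 allows up to 0.0505 CPM by counting error alone, beside 9.66 CPM in both other female libraries and 3.05 to 3.55 CPM in the males. Members of low level could be lost from that library, so its zero need not bound the level. Its log2 fold change was -1.05 ± 1.27 (SE), with an adjusted p of 0.721 in edgeR.

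The ratio of miR-16-1-3p to miR-16-2-3p was 0.664 and 0.520 in female libraries 1 and 3, with no miR-16-2-3p read in female library 2, and 3.66, 1.00 and 1.65 in male libraries 1 to 3. With 0.5 added to each count, the difference of log2 ratios was -1.83 over all 6 libraries (exact permutation p = 1) and 1.63 without female library 2 (exact permutation p = 0.2), so that 1 library sets its sign. The ratio of miR-15b-3p to miR-16-2-3p, whose precursors lie in the same intron, also turned on this library, with 5.88 in female library 1 and 6.02 in female library 3, against 16.8, 17.8 and 20.4 in male libraries 1 to 3. Its difference was -1.67 with female library 2 (exact permutation p = 1) and 1.61 without it (exact permutation p = 0.1, the smallest that 3 against 2 allows).

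miR-15a-3p was found in 3 of the 6 libraries, with 40, 0 and 55 reads in female libraries 1 to 3 and 0, 33 and 0 in male libraries 1 to 3. The counts of 0 allow, by counting error alone, up to 0.0505, 0.161 and 0.127 CPM in female library 2 and male libraries 1 and 3. Its log2 fold change of -2.41 had a standard error of 2.83 (edgeR adjusted p = 0.705), and 1 of its zeros lay in female library 2, the deepest. The ratio of miR-15a-5p to miR-15a-3p, 81.7 and 173.5 in female libraries 1 and 3 and 95.2 in male library 2, could not be formed from reads in the other 3 libraries. With 0.5 added to each count it differed by 1.08 on the log2 scale (exact permutation p = 0.9).

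miR-195a-5p and miR-497a-5p come from hairpins next to each other on chromosome 11. miR-195a-5p had 57.4, 45.6 and 88.1 CPM in female libraries 1 to 3 and 35.0, 57.5 and 32.2 CPM in male libraries 1 to 3, with male library 2 inside the female range. Its log2 fold change was -0.71 ± 0.34 (SE), with an adjusted p of 0.263 in edgeR, and -0.86 with an adjusted p of 0.0126 from edgeR without female library 2. miR-497a-5p had 26.9, 20.5 and 23.0 CPM in the females and 22.3, 24.6 and 33.1 CPM in the males, and the sexes were interleaved (log2 fold change 0.07 ± 0.38 (SE), edgeR adjusted p = 0.966). The ratio of miR-195a-5p to miR-497a-5p was 2.14, 2.22 and 3.82 in the females and 1.57, 2.34 and 0.973 in the males, which overlapped (-0.78 on the log2 scale, exact permutation p = 0.3, adjusted p = 0.5). Of the other arms of these hairpins, miR-195a-3p had 2.35 to 3.79 CPM in females and 4.01 to 10.1 in males (log2 fold change 0.91 ± 0.94 (SE), edgeR adjusted p = 0.644). No library had a read of miR-497a-3p, which allows, by counting error alone, up to 0.0505 to 0.203 CPM depending on the depth of the library.

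miR-322-5p is the mouse counterpart of human miR-424 and the family's member on the X chromosome. It had 100.5, 32.9 and 105.2 CPM in female libraries 1 to 3 and 49.2, 57.2 and 66.7 CPM in male libraries 1 to 3. Female libraries 1 and 3 lay above all the males and female library 2 below them. The log2 fold change was -0.55 ± 0.34 (SE), with an adjusted p of 0.429 in edgeR, and -0.90 with an adjusted p of 0.00261 from edgeR without female library 2. It also passed in DESeq2 with 1 RUVr factor (-0.58, adjusted p = 0.0445), where 20.2% of all miRNAs passed. With the GC offset, its log2 fold change was close to 0, at -0.11 in edgeR.

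The other arm of the same hairpin was the more abundant one and lay on the other side. miR-322-3p had 1070.6, 856.2 and 1239.4 CPM in female libraries 1 to 3 and 1668.6, 1712.8 and 1631.0 CPM in male libraries 1 to 3, with each male library above each female library (log2 fold change 0.55 ± 0.19 (SE), edgeR adjusted p = 0.0984). It passed under 7 of the 11 other scalings, filters, tools and terms, with adjusted p-values between 0.00235 in DESeq2 with 1 RUVr factor and 0.0838 in edgeR with a replicate block, and under 1 of the 6 fits that left out a library. There were 0.0938, 0.0385 and 0.0849 reads of miR-322-5p for each read of miR-322-3p in the females and 0.0295, 0.0334 and 0.0409 in the males. Female library 2 was inside the male range, and the difference of log2 ratios was -0.98 (exact permutation p = 0.2, adjusted p = 0.5). Against miR-503-5p, from the next hairpin, miR-322-5p stood at 0.712, 0.305 and 0.713 in the females and 0.219, 0.317 and 0.322 in the males (-0.93, exact permutation p = 0.3, adjusted p = 0.5).

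The neighbours of miR-322 on the X chromosome lay on both sides of 0. Of the 12 other mature miRNAs of this cluster, all with at least 10 reads in total, 2 passed edgeR's test, both higher in males, where 3.21% of all miRNAs tested did so. miR-351-5p, a miRNA with the seed of miR-125, had 767.2, 1059.9 and 578.8 CPM in female libraries 1 to 3 and 1580.1, 1619.9 and 1689.9 CPM in male libraries 1 to 3 (log2 fold change 0.88 ± 0.23 (SE), edgeR adjusted p = 0.0122). miR-450b-3p had 137.6, 118.2 and 146.9 CPM in the females and 234.7, 293.5 and 229.3 CPM in the males (0.80, standard error 0.22, edgeR adjusted p = 0.0172). In both, all the males lay above all the females. The edgeR call of miR-351-5p was lost without female library 3 (adjusted p = 0.0971), without male library 1 (0.135), with at least 10 reads asked of every library (0.0562) and with the GC offset (0.11). That of miR-450b-3p was lost without male library 1 (edgeR adjusted p = 0.0777) and without male library 2 (0.229).

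Among the 10 neighbours that did not pass in edgeR with TMM scaling, miR-503-5p (0.50), miR-503-3p (0.79), miR-351-3p (1.13), miR-542-5p (0.88) and miR-450b-5p (0.40) had positive log2 fold changes like miR-322-3p. miR-542-3p (-0.81), miR-450a-5p (-0.53), miR-450a-1-3p (-1.10) and miR-450a-2-3p (-1.92) had negative ones, the last from 6 to 32 reads in 3 libraries and none in the other 3. Of the positive ones, miR-450b-5p had 1 read in female library 2, and its log2 fold change was -0.19 in edgeR without that library. The median over the 12 was 0.52, and in 8 of them the sexes did not overlap in CPM, against 23.9% of all miRNAs tested. The GC content of the mature sequence was 27.3% to 40.9% in the 4 neighbours with negative values. In the 8 with positive values it was 31.8% to 66.7%, with 62.5% in miR-351-5p and 66.7% in miR-351-3p, and the family's guide strands hold 40.9% to 50.0%. With the GC offset in edgeR, the log2 fold change was 0.28 for miR-450a-5p, -0.03 for miR-542-3p, -0.30 for miR-450a-1-3p and -1.47 for miR-450a-2-3p. Among the positive ones it was 0.05 for miR-503-5p, 0.46 for miR-542-5p, 0.57 for miR-351-5p, 0.58 for miR-322-3p and 0.61 for miR-503-3p. It was 0.89 for miR-351-3p, 1.29 for miR-450b-3p and 1.40 for miR-450b-5p, the last with a standard error of 0.93. The offset was fitted on these same libraries, so it can also take out a sex difference that goes with GC content. Whether GC content has a part in these directions was not tested.

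The miRNAs that carry the family's 7 letters 1 base earlier overlapped between the sexes. miR-103-3p, which is encoded in introns of pantothenate kinase genes, had 15302.9, 12259.4 and 14011.3 CPM in female libraries 1 to 3 and 13662.0, 13317.0 and 14886.6 CPM in male libraries 1 to 3, a level near that of miR-16-5p. Its log2 fold change was -0.11 ± 0.23 (SE), with an adjusted p of 0.857 in edgeR, and the fold change turned to 0.01 with library size as the scaling. That of miR-107-3p, at 205.2 to 340.8 CPM, was 0.01 ± 0.21 (SE, edgeR adjusted p = 0.996), and its sign turned with RUVr and with the filter.

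**Figure D5:**
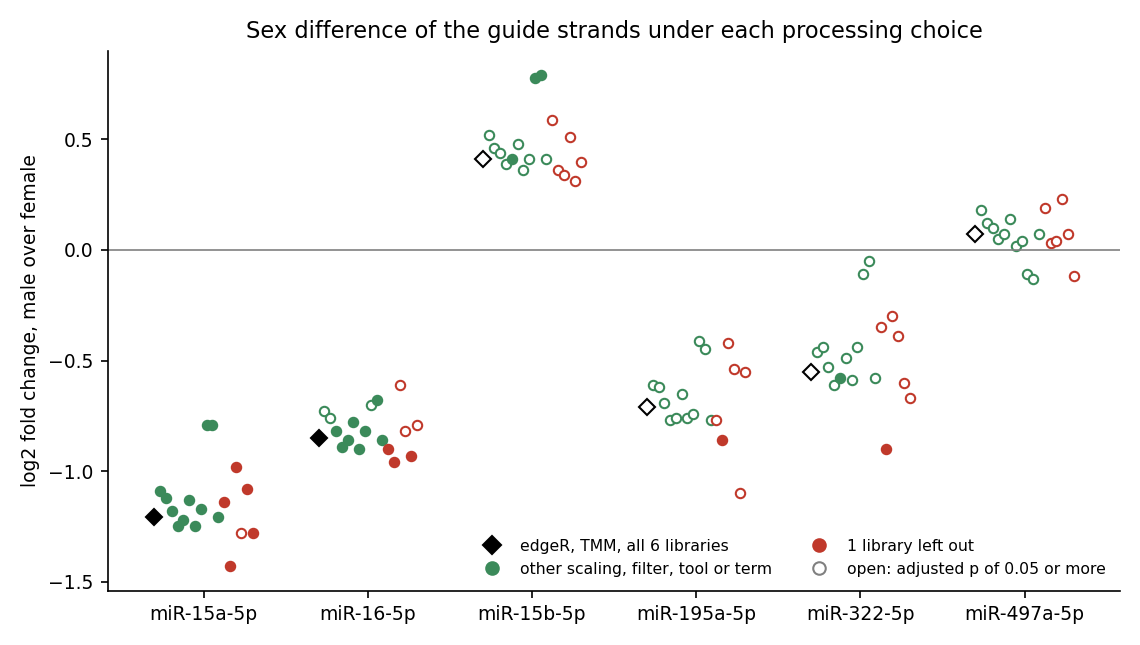
Log2 fold change, male over female, of the 6 guide strands under each processing choice, where black diamonds are edgeR with TMM scaling on all 6 libraries, green points other scalings, filters, tools and terms, and red points fits with 1 library left out. Open points have an adjusted p of 0.05 or more. miR-15a-5p stays between -1.43 and -0.79 and miR-16-5p between -0.96 and -0.61, miR-15b-5p stays between 0.31 and 0.79, and miR-497a-5p scatters around 0.

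The plot of the guide strands under each processing choice shows that miR-15a-5p, miR-16-5p, miR-195a-5p and miR-322-5p had negative log2 fold changes in every fit and miR-15b-5p positive ones. Which members passed varied. Leaving out female library 2 brought the count of members that passed from 2 to 4, with miR-195a-5p and miR-322-5p added, and 203 of all miRNAs (18.3%) then passed in place of 95. Leaving out male library 1 brought it to 0 in edgeR, when 30 of all miRNAs (2.73%) passed. The edgeR adjusted p was then 0.0696 for miR-15a-5p, 0.223 for miR-16-5p and 0.368 for miR-15b-5p.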

How the data were processed

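The authors deposited raw counts of reads per mature miRNA, without normalization, for each of the 6 libraries. Adaptors were trimmed with cutadapt 1.15 and reads mapped with Bowtie 1.2.1 (genome build mm9), as the submitters' processing notes name them, and known miRNAs of miRBase v.21 were quantified with miRDeep2, as the study's methods state. Libraries were grouped by the sex in the labels. CPM are counts per 1000000 reads of the library total, and depth was 14802675 to 59362011 reads. Limits for a count of 0 are 3 reads of the total and cover counting error only.

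In R 4.3.3, miRNAs with a total of at least 10 reads (1120) were scaled by TMM and tested for sex with edgeR 4.0.16 (glmQLFit, glmQLFTest), with Benjamini-Hochberg adjustment over all of them and a threshold of 0.05. Standard errors came from the log2 fold change and its F statistic. The fit was tested on simulated data. DESeq2 1.42.0 was an alternative, beside other scalings, filters, RUVr, a replicate block, a GC offset (loess, span 0.75) and each library left out. The study's methods name DESeq2 with RUVr, whose number of factors is not given in the sources used here, and 1 was used. Ratios had 0.5 added to each count.

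Named miRNAs were the members, their locus neighbours, miRNAs with the same or a shifted seed, and the 3 nearest patterns of each guide strand. Members, lists and markers were chosen with earlier results of these data known. RefSeq sequences matched 10 of 10 members and 474 of the 553 miRNAs that averaged 100 reads or more (85.7%). Precursors were placed on mm9 by exact match of RefSeq hairpins, and Mir15a by its mature arms. Host genes came from GENCODE vM1.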

Additional observations from a re-analysis of the deposited data

How the results depend on the processing

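The count of members that passed was 2 in edgeR with TMM scaling (8.48% of all miRNAs passed). It was 1 with library size or upper quartile scaling (7.95% and 8.12%) and 4 in DESeq2 with 1 RUVr factor (20.2%). With 1 library left out the count was 0 to 4. It was 0 without male library 1 (30 of all miRNAs passed), 1 without female library 3 (60) or male library 3 (83), and 4 without female library 2 (203). Library size moved the median log2 fold change of all miRNAs by 0.12, 1 RUVr factor by 0.23 in edgeR and 0.26 in DESeq2, and 10 reads in every library by -0.13. DESeq2 with 1 RUVr factor called 226 miRNAs, edgeR with it 147 and edgeR alone 95. Uncentred RUVr residuals, an alternative chosen after seeing the data, gave 216, without miR-15b-5p (adjusted p = 0.0536 in DESeq2) and miR-322-5p (0.0633). The labels number the replicates and do not say whether equal numbers are pairs. Same-numbered libraries correlated at -0.08, 0.029 and 0.158 in their deviations from the mean of their sex. With 3 libraries per sex these values cannot decide whether the samples are paired. With a replicate block the count of members stayed 2, where 8.21% of all miRNAs passed. With the GC offset and the block it was 3, miR-15a-5p, miR-15b-5p and miR-16-5p, where 8.84% of all miRNAs passed. Pairing the ratios by number left their differences as they were, and 3 pairs cannot give a p below 0.25.

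Reversals lay among results that did not pass, and their cause was not tested. The log2 fold change of miR-16-1-3p became 0.17 with library size, 0.03 with upper quartile scaling and DESeq2, 0.05 with RUVr in edgeR, 0.09 with either RUVr in DESeq2 and 0.10 without the filter. That of miR-16-2-3p became 0.57 with RUVr in edgeR, 0.68 in DESeq2, 0.73 with uncentred residuals and 0.86 with GC offset and block. miR-107-3p had -0.04 with RUVr in edgeR, -0.01 with either RUVr in DESeq2 and -0.03 with 10 reads in every library, where miR-15b-3p had -0.02. miR-103-3p had 0.01 with library size. miR-450a-2-3p had 4.01 with the block and 4.20 with GC offset and block, where miR-497a-5p had -0.11 (GC offset) and -0.13 (both), and miR-450a-5p 0.28 and 0.31. With 1 library left out, values ranged from -0.55 to 0.25 for miR-16-1-3p, -0.15 to 0.12 for miR-107-3p, -0.08 to 0.17 for miR-15b-3p, -0.12 to 0.23 for miR-497a-5p, -2.50 to 5.75 for miR-450a-2-3p and -0.19 to 1.24 for miR-450b-5p. The difference of log2 ratios ranged from -0.36 to 3.41 for miR-15a-5p over miR-15a-3p, -3.64 to 1.63 for miR-16-1-3p over miR-16-2-3p and -3.32 to 1.61 for miR-15b-3p over miR-16-2-3p. The other 7 ratios kept their direction with each library left out and with 2 added in place of 0.5. Few reads limit miR-15a-3p, miR-16-1-3p and miR-16-2-3p, and the zero of miR-16-2-3p was in the deepest library, female library 2.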

Other observations

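The pattern of each guide strand over the 6 libraries was set beside those of 544 other miRNAs that averaged 100 reads or more, as the root mean square difference of log2 CPM after each miRNA was centred on its own mean. The measure is a description over 6 libraries that share depth and composition, with no test. The pattern nearest to miR-15a-5p was that of miR-101b-3p (0.08, against a median of 0.80 over the 544), followed by miR-1264-5p (0.20) and miR-21a-5p (0.21). For miR-15b-5p the nearest were miR-221-3p (0.11), miR-27b-3p (0.11) and miR-296-5p (0.12), with a median of 0.52. For miR-16-5p they were miR-369-3p (0.10), miR-20a-5p (0.11), which belongs to the miR-17-92 group of cell cycle miRNAs, and miR-217-5p (0.11), with a median of 0.63.

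miR-195a-5p was nearest to miR-3081-3p (0.20), miR-376b-3p (0.22) and miR-1194 (0.26). miR-497a-5p was nearest to miR-103-3p (0.15), miR-155-5p (0.16) and miR-3093-5p (0.16), and miR-322-5p to miR-140-5p (0.19), miR-301a-5p (0.21) and let-7c-2-3p (0.22). Among the guide strands themselves, the closest patterns were those of miR-16-5p with miR-195a-5p (0.25) and of miR-15b-5p with miR-497a-5p (0.25), in neither case guides of 1 shared locus. miR-15a-5p and miR-16-5p differed by 0.33, and miR-15a-5p and miR-15b-5p were the farthest apart of the 15 pairs (0.88).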
